A study of Mus musculus with 6 samples.

Results

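TAF4A peaks of genes for chromatin regulators and for the transcription machinery were examined in cultured, activated and proliferating muscle stem cells (MuSCs) of wild-type C57BL/6 mice. TAF4A is a subunit of TFIID, the general transcription factor that positions RNA polymerase II at gene starts. Peaks were taken by gene name: a peak belonged to the set when the gene listed for it carried a symbol of fixed families, such as Kansl, Kat, Kdm, Kmt, Setd, Prmt, Mbd, Chd, Arid and Phf for chromatin, and Taf, Gtf, Polr, Med, Elo and Ell for the machinery. This gave 46 of 1131 peaks, at 35 genes. Of these, 28 peaks at 22 genes were chromatin and 18 peaks at 13 genes were machinery.

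CUT&RUN releases DNA with a nuclease that is tethered to an antibody, so that reads mark places where the antibody was bound. The series held 6 libraries, 3 made with an antibody to TAF4A and 3 with the control antibody IgG, all from wild-type cells for which no treatment is labelled. Counts per peak were analysed for the 3 TAF4A libraries, while IgG counts were not analysed, so that no level over background is given. The cells were sorted as negative for SCA1, CD45 and CD31 and positive for integrin α7 or a Pax7 reporter before culture. Of 10 marker genes of muscle stem cells, 3 had a listed peak (Myod1, Itga7 and Des), and that of Itga7 was not within 1000 bases of its start. Pax7, Pax3, Myf5, Vcam1, Cd34, Sdc4 and Cdh15 had none. Of 5 endothelial and blood markers 0 had one. Among all protein-coding genes 3.79% had a listed peak, so 0 of 5 does not tell how pure the cells were. These counts describe peaks and not expression.

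Counts were low. Replicates 1, 2 and 3 had 47723, 24826 and 32128 counts over all peaks, and a median of 29, 16 and 22 counts per member peak. A normalised count, used below, is a count after scaling of the libraries to each other. Levels of peaks of different width are compared as normalised counts per 100 bases. At such low counts, differences between libraries can go undetected at a single peak. Intervals given below are over numbers of genes or peaks and cover counting error only.

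Chromatin regulators act on nucleosomes. Writers such as acetyltransferases and methyltransferases add marks to histones, erasers remove them, readers bind to them, and remodellers use ATP to move nucleosomes. The transcription machinery consists of TFIID, the other general factors, the polymerases, Mediator and the elongation factors. The promoters of such genes are mostly rich in GC and active in many tissues, and a pair of short elements is frequent in them. These are the CCAAT box, which the trimeric factor NF-Y binds, and the GC box, which SP1 binds.

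The sequences under peaks that carry the results are shown first, from the GRCm38 genome (the build that mm10 names), each read 5′ to 3′ on the strand of its gene. Parts that overlap exons of protein-coding genes were left out. Capitals mark matches, on either strand, to CCAAT or CCAATCA (NF-Y), GGGCGG or GGGCGGG (SP1), CCGGAAG (ETS factors), TGACGTCA (CREB) and AAGATGGCG (YY1). The shorter forms lie inside the longer ones, and a match on the opposite strand is printed as its reverse complement, so that a CCAAT box there reads ATTGG and an SP1 match there starts with CCGCCC or CCCGC. The Kansl2 and Mbd3 peaks and the internal Chd2 peak are given because they hold both full NF-Y and SP1 motifs, Kat7 as the only lysine acetyltransferase gene listed, Arid5a because its libraries differed, Taf13 and Taf4 as parts of TFIID, and Polr2a for a further NF-Y match away from the gene start.
Kansl2: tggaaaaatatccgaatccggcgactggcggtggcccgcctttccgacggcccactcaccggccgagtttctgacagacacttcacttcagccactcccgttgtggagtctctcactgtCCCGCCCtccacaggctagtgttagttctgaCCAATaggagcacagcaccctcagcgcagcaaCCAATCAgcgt
Mbd3: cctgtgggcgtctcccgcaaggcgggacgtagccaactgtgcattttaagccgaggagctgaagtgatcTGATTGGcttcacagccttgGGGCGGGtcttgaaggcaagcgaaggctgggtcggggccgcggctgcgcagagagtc
Chd2: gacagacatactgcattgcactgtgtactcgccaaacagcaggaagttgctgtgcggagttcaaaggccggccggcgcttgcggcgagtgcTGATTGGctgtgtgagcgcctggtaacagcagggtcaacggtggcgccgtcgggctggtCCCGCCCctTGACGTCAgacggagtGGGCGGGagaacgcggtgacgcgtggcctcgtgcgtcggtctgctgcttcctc
Kat7: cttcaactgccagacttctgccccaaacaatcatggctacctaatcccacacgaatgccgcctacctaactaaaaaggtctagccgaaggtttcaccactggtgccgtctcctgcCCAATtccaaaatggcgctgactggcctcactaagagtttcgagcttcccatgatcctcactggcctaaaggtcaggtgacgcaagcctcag
Arid5a: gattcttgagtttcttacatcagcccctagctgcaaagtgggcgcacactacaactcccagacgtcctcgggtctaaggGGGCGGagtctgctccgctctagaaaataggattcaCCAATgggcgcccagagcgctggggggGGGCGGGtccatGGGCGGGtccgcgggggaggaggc
Taf13: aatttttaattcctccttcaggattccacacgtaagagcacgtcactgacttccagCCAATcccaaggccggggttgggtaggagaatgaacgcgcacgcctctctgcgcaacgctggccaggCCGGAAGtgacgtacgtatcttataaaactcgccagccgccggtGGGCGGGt
Taf4: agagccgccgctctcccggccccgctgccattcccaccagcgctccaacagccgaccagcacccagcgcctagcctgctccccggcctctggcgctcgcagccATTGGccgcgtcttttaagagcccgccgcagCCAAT
Polr2a: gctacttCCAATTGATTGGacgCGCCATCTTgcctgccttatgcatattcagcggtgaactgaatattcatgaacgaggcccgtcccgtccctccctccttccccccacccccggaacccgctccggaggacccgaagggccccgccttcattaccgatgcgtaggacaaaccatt

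These stretches lie on chromosome 15 for Kansl2 (chr15:98534309-98534501), chromosome 10 for Mbd3 (chr10:80399551-80399696), chromosome 7 for Chd2 (chr7:73537830-73538057), chromosome 11 for Kat7 (chr11:95310247-95310453) and chromosome 1 for Arid5a (chr1:36307555-36307732). Those of Taf13 (chr3:108571523-108571697), Taf4 (chr2:179976833-179976971) and Polr2a (chr11:69758983-69759158) are on chromosomes 3, 2 and 11. Arid5a and Taf13 are on the plus strand, and the other 6 genes are on the minus strand.

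At Kansl2, which codes for a subunit of the non-specific lethal (NSL) acetyltransferase complex, 1 peak of 193 bases was found upstream of the gene start. It had 35, 26 and 23 counts in replicates 1, 2 and 3, a normalised count of 28.8 ± 6.26 (SD, n = 3). Per 100 bases this was 14.9 ± 3.25, at or above the level of 64.1% of all peaks. The peak centre lay 141 bases upstream of the annotated start. Its sequence held 2 CCAAT boxes on the gene strand, centred 53 and 85 bases upstream of the start and 32 bases apart, and the box nearer to the start was part of the full NF-Y motif. A full SP1 motif followed on the opposite strand, centred 115 bases upstream. An exact multinomial test of the 3 counts against the scaled library sizes did not detect a difference between libraries beyond counting noise (adjusted p = 0.50).

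Of the 9 genes of the NSL complex, 2 had a listed peak (22.2%, against 3.79% of all protein-coding genes). These were Kansl2 and, outside the name families, Ogt, which codes for the O-GlcNAc transferase. Kansl1, Kansl3, Kat8, Mcrs1, Phf20, Hcfc1 and Wdr5 had none. Kat8 codes for the acetyltransferase of the complex.

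Next, it was asked how many genes of these families had a peak at all. Of 290 annotated protein-coding genes with a name that fits the families, 35 were listed (12.1%, 95% Wilson interval 8.81 to 16.3). Of all 21951 annotated protein-coding genes, 832 were listed (3.79%). This count takes genes whether or not they are expressed in these cells, and no share among expressed genes was computed. The gene set was also chosen with earlier results of these data known. The share was 12.9% (22 of 171) for chromatin and 10.9% (13 of 119) for machinery genes, and the intervals of both (8.65 to 18.7 and 6.50 to 17.8) overlapped widely. A name is a loose rule, since it also takes genes with another function such as Nsdhl, an enzyme of cholesterol synthesis without a listed peak.

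**Figure D1:**
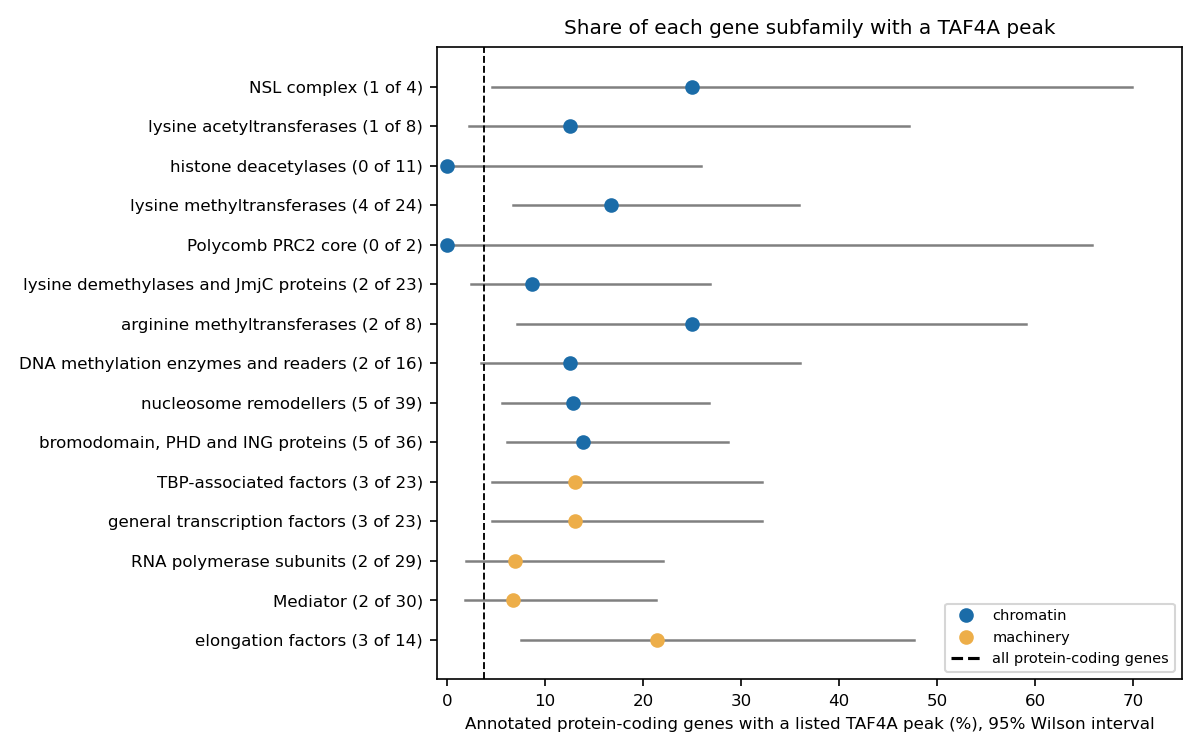
Share of the annotated protein-coding genes of each subfamily with a listed TAF4A peak (x axis, percent), with the 95% Wilson interval as a line and the numbers of genes in brackets. The dashed line marks all protein-coding genes (3.79%), and the intervals include it for lysine acetyltransferases, deacetylases, the PRC2 core, demethylases, genes of DNA methylation, polymerase subunits and Mediator.

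Within the chromatin genes, the families contributed unevenly in number, with wide intervals. Histone deacetylases, which remove acetyl groups, had 0 of 11 genes listed (0%, up to 25.9). The Polycomb core subunits Eed and Suz12 had 0 of 2. Lysine methyltransferases had 4 of 24 (16.7%), but only 2 of them (8.33%) had a peak within 1000 bases of a start of their own, since the peaks listed for Setd1b and Setd5 lay farther away. By the same measure lysine demethylases and JmjC proteins went from 2 of 23 (8.70%) to 4 (17.4%). Remodellers had 5 of 39 (12.8%) and bromodomain, PHD and ING proteins 5 of 36 (13.9%). Arginine methyltransferases had 2 of 8 (25.0%, 7.15 to 59.1). Of 10 methyltransferases linked to heterochromatin, among them the Suv39h genes, 0 were listed, against 3.79% of all protein-coding genes.

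Complexes were counted next from lists that also hold genes outside the name families, beside 3.79% of all protein-coding genes listed. NuRD, which joins deacetylase and remodelling activity, had 5 of 14 genes listed, namely the members Mbd3 and Chd3 and, outside the families, Gatad2a, Gatad2b and Rbbp4. Of these, 4 had a peak within 1000 bases of a start of their own, all but Chd3. Polycomb repressive complex PRC2 and its partners had 3 of 11, the members Ezh2 and Phf19 and again Rbbp4. The BAF and PBAF remodellers had 2 of 25, the member Arid1a and Pbrm1, which is outside the families. COMPASS, which methylates histones at active genes, had 2 of 13, the members Setd1b and Kdm6a, and only Kdm6a had a peak within 1000 bases of its own start.

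Among the lysine acetyltransferases, Kat7 (also known as Hbo1) was the only gene listed, of 8. Its peak of 270 bases had 42, 15 and 36 counts, with a normalised count of 30.1 ± 8.59 (SD, n = 3). It spanned the gene start, with the centre 72.5 bases upstream, and carried 1 CCAAT box 90 bases upstream on the gene strand. Per 100 bases it reached 11.1 ± 3.18, at or above the level of 34.4% of all peaks.

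Mbd3 and Mbd1 were the listed genes for binding of methylated DNA or for its family. Mbd3 codes for a NuRD subunit that itself binds methylated DNA poorly. Its peak had 43, 23 and 19 counts, a normalised count of 28.1 ± 7.13. Both full motifs lay close together, SP1 on the gene strand 54 bases and NF-Y on the opposite strand 74 bases upstream of the start. Mbd1, a reader of methylated CpG sites, had a weak peak with a normalised count of 7.71 ± 1.47. No enzyme of the Dnmt or Tet families was listed.

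The arginine methyltransferases Prmt1, the main enzyme for asymmetric dimethylation, and Prmt5, the main enzyme for symmetric dimethylation, had peaks at their starts. At the Prmt1 promoter 31, 15 and 14 counts gave a normalised count of 19.6 ± 4.54. The second Prmt1 peak, in an intron and 2009.5 bases inside the gene, had 18, 9 and 12 counts, a normalised count of 12.9 ± 0.673. Per 100 bases the promoter peak was the highest of the 3 peaks of this family (18.2 ± 4.20) and the intron peak the lowest (9.19 ± 0.481), and the values of the libraries did not overlap. The Prmt1 promoter peak held 2 CCAAT boxes on the gene strand, 41 bases apart, and the Prmt5 peak held 3. Prmt5 had a normalised count of 22.8 ± 4.28.

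The listed lysine methyltransferases and SET-domain relatives were Kmt2e, Setd1b, Ezh2 and Setd5. Kmt2e, a SET-domain protein of the MLL family, had 2 peaks upstream of its start. The farther one, centred 1131.5 bases upstream and 0.5 bases from the start of the non-coding gene 5031425E22Rik on the opposite strand, had 77, 46 and 39 counts. The nearer one, 222 bases upstream and 50 bases from a start of the same non-coding gene, had 20, 7 and 5 counts. Its mean per 100 bases was the lowest of this family (6.72 ± 3.34, against 13.4 ± 2.94 at the farther peak). It was below Ezh2 (7.62 ± 3.41) in replicate 3 only. Setd1b, a catalytic subunit of COMPASS, had its peak (normalised count 15.3 ± 4.90) 14.5 bases from the start of the non-coding gene AI480526 and 1089.5 bases upstream of its own. Ezh2, the Polycomb methyltransferase, had a normalised count of 9.15 ± 4.09, with 2 CCAAT boxes in opposite orientation and 26 bases apart.

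The 2 peaks listed for Setd5, a SET-domain gene, stood apart from the rest and cannot be ascribed to that gene. They lay 4414 and 3633 bases upstream of Setd5 but inside an intron of Gt(ROSA)26Sor, the Rosa26 locus, which is commonly used as an insertion site for transgenes in mice. The wider peak (chr6:113072742-113073160) had 8, 540 and 229 counts in replicates 1, 2 and 3, and the narrower one (chr6:113073675-113073789) had 0, 136 and 63. Replicate 1 was thus near the bottom at both, while replicate 2 was highest. The normalised count of 330.4 ± 378.2 at the wider one exceeded that of every other peak in the set of 1131, and its SD exceeded its mean. Without replicate 2 it was 122.0 and ranked at position 27, and in replicate 1 alone it was 6.07 and ranked at position 1062. These peaks made up most of the difference in the members' share of counts, which was 3.43%, 6.33% and 4.56% in replicates 1, 2 and 3, and 3.42%, 3.61% and 3.65% without them. The cause was not tested.

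Lysine demethylases and JmjC proteins were represented by Kdm6a and Jmjd6. Kdm6a, the demethylase UTX of the COMPASS-like complexes, had 12, 0 and 16 counts at its start. A count of 0 allows up to 3 counts in replicate 2, and the libraries differed at this peak (exact multinomial test, adjusted p = 0.00530). At 6.02 ± 5.85 per 100 bases it was the lowest member peak, but this rank rested on replicate 2, without which it was at 8.98 and 9 other member peaks were lower. Jmjd6, a JmjC-domain oxygenase, had 29, 15 and 8 counts. Its peak was centred 80 bases upstream of its own start and 26 bases from that of Mettl23, which is transcribed in the other direction.

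The 5 remodeller genes had 7 peaks. Arid1a, the DNA-binding subunit of BAF, had a peak 86.5 bases upstream of its start with 13, 10 and 5 counts, and another 748 bases upstream with 21, 10 and 15. Per 100 bases both were alike within their spread (9.26 ± 4.13 and 10.9 ± 0.829). Chd2, a chromodomain helicase, had its larger peak 3886.5 bases inside the gene. Its centre lay at a distance of 69.5 bases from where the antisense gene Gm44686 starts and 322.5 bases upstream of the nearest start of Chd2, an internal one. It had 60, 31 and 42 counts, a normalised count of 44.1 ± 1.34, and was the highest of this family per 100 bases (19.3 ± 0.589). The peak at the outer Chd2 start had 12, 12 and 7 counts, and 11.0 ± 4.91 per 100 bases. The values of the 3 libraries did not overlap between these 2 peaks. Chd6 had the lowest mean (8, 6 and 18 counts, 7.84 ± 4.83 per 100 bases). It was below the nearer Arid1a peak in replicates 1 and 2 but above it in replicate 3 (13.3 against 5.02). Chd3, the helicase of NuRD, had 10.6 ± 3.27 in an intron 2766.5 bases inside the gene. Arid5a, an AT-rich interaction domain protein, had 10, 19 and 32 counts. After scaling these were 7.58, 26.2 and 33.4, with replicate 1 low, and the libraries differed (adjusted p = 0.000471).

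Among the chromatin genes, bromodomain, PHD and ING proteins, which read histone marks, had the highest median level per 100 bases (19.6). Ing1, a subunit of deacetylase complexes, had the highest peak among them, with 130, 79 and 154 counts at an internal start 2623.5 bases inside the gene. This was a normalised count of 122.9 ± 33.4 and 31.7 ± 8.60 per 100 bases, at or above the level of 98.1% of all peaks, and the libraries differed (adjusted p = 0.00197). The other Ing1 peak had 74, 54 and 61 counts (21.4 ± 3.07 per 100 bases). Brd2, a BET protein that binds acetylated histones, reached a normalised count of 60.5 ± 12.8. Phf12 was the lowest per 100 bases (22, 8 and 9 counts, 12.4 ± 3.81). Phf19, a PRC2 partner, and Phf23 had normalised counts of 29.0 ± 9.67 and 15.9 ± 2.76.

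**Figure D2:**
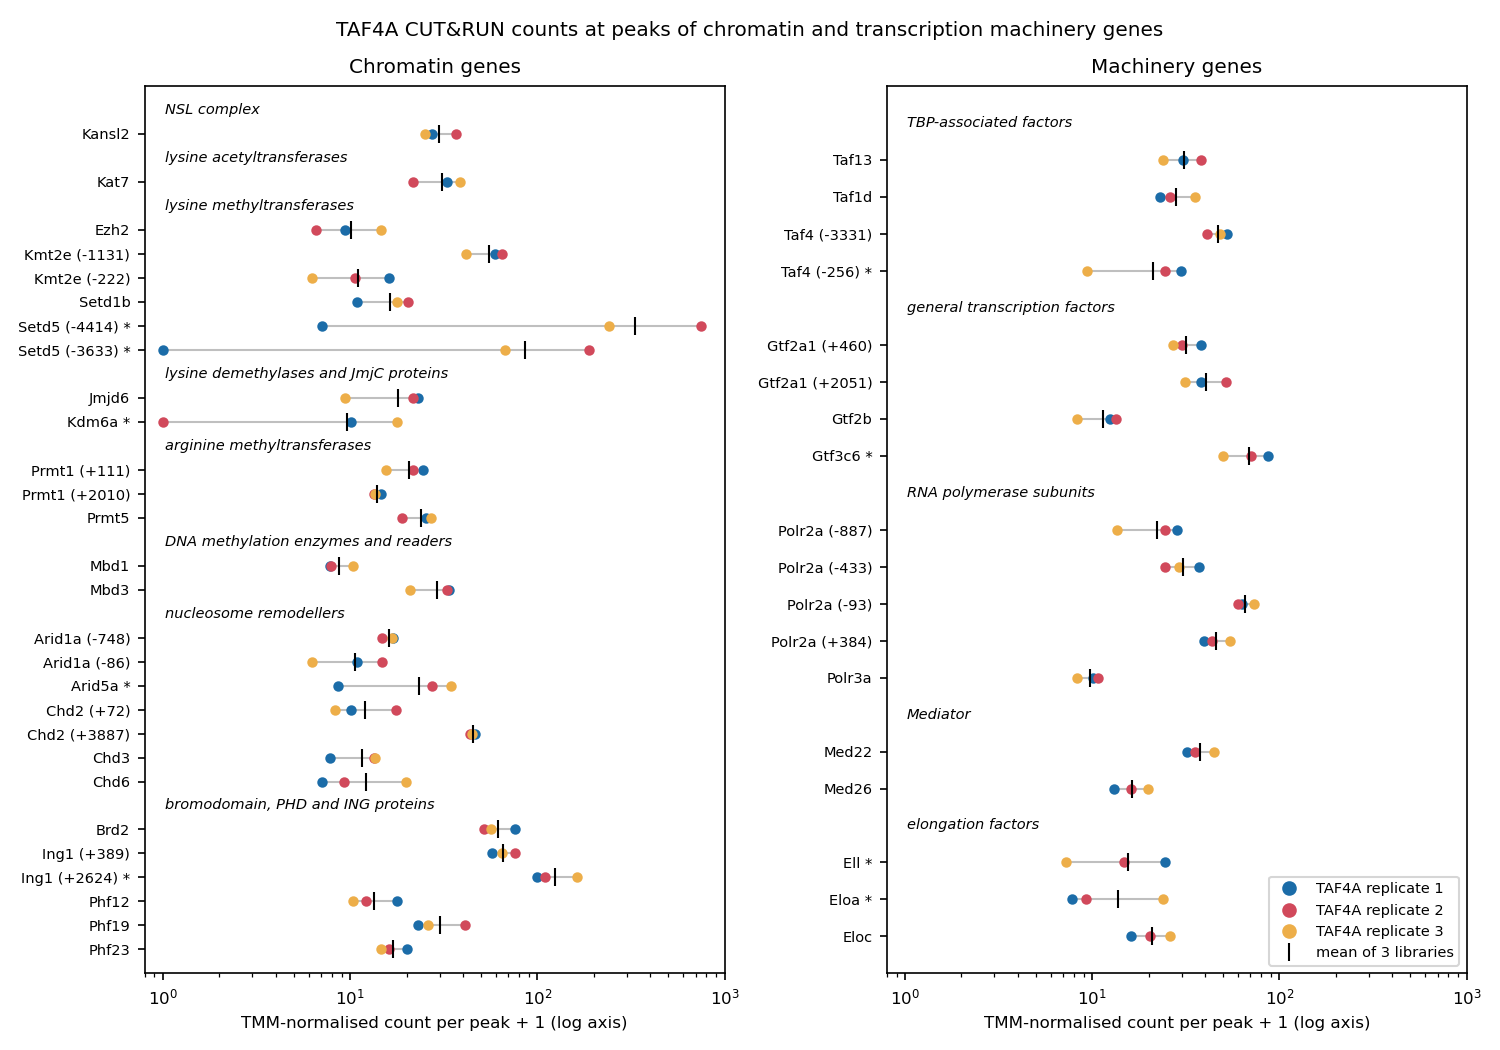
TMM-normalised counts plus 1 (log axis) of the 46 member peaks in the 3 TAF4A libraries, by subfamily; coloured points are libraries, black bars their mean, and asterisks mark the 9 peaks at which the libraries differed beyond counting noise. Numbers in brackets give the distance of the peak centre from the gene start in bases, rounded, and the Setd5 peaks show the widest spread.

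Turning to the machinery, 3 genes for TBP-associated factors (TAFs) had 4 peaks. Taf4, the gene for TAF4A itself, had a peak centred 256 bases upstream of its start with 38, 17 and 8 counts, a normalised count of 20.2 ± 10.6. At this peak replicate 3 was low and the libraries differed (exact multinomial test, adjusted p = 0.0149). A second, wider Taf4 peak lay in intergenic sequence 3331.5 bases upstream (chr2:179979826-179980129), with 68, 29 and 45 counts and a normalised count of 46.2 ± 5.79. Per 100 bases the peaks did not differ beyond their spread (14.5 ± 7.63 and 15.2 ± 1.90). The promoter peak held 2 CCAAT boxes in opposite orientation, 31 bases apart, and its centre was 49 bases from the start of the non-coding gene 4921531C22Rik.

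Taf13, a TFIID subunit with a histone fold, had 39, 27 and 22 counts, a normalised count of 30.0 ± 7.16. Its 183 bases carried a CCAAT box 117 bases, an ETS motif 49 bases and a full SP1 motif 5 bases upstream of the start. Taf1d, a subunit of the selectivity factor of RNA polymerase I, had 29, 18 and 33 counts and, at 17.5 ± 4.22 per 100 bases, the highest mean of this family. It was above Taf13 (16.4 ± 3.91) in replicate 3 only. The Taf1d peak centre was 54 bases upstream of its own start but only 7 bases from that of 4931406C07Rik, a protein-coding gene on the other strand. Of the 16 TFIID genes, Taf4 and Taf13 had a listed peak (12.5%, against 3.79% of all protein-coding genes). Tbp, Taf1, Taf2, Taf3, Taf4b, Taf5, Taf6, Taf7, Taf8, Taf9, Taf9b, Taf10, Taf11 and Taf12 had none. Of the 16 genes of SAGA, a coactivator that shares TAFs with TFIID, Usp22 and Eny2 had one (12.5%), both outside the name families.

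Polr2a, which codes for the largest subunit of RNA polymerase II, had 4 peaks within 1520 bases, more than any other member gene. Their centres lay 887, 433.5 and 93 bases upstream and 383.5 bases downstream of the gene start. Counts in replicates 1, 2 and 3 were 36, 17 and 12 at the outermost, 48, 17 and 27 at the next, 82, 43 and 69 at the peak over the start, and 51, 31 and 51 inside the gene. Per 100 bases the level was highest over the start (21 ± 2.18), similar at its neighbours (16.7 ± 3.71 and 16.8 ± 2.81) and lowest at the outermost (9.14 ± 3.32). The outermost peak lay below the peak over the start in 3 of 3 libraries. The other 11 subunits of the enzyme had no listed peak, so that 1 of 12 was listed (8.33%, against 3.79% of all protein-coding genes). Polr3a, the largest subunit of RNA polymerase III, had 12, 7 and 7 counts, the lowest of the polymerase genes per 100 bases (6.21 ± 0.877). Its peak centre was 29.5 bases from its own start and 37 bases from that of the ribosomal protein gene Rps24 on the other strand.

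The 3 genes for general transcription factors had 4 peaks. Gtf2a1, a subunit of TFIIA, had a promoter peak with 49, 21 and 25 counts and an intron peak 2050.5 bases inside the gene with 49, 37 and 29 (12.3 ± 2.29 and 15.2 ± 4.08 per 100 bases). Gtf2b, which is TFIIB, was the lowest (15, 9 and 7 counts, 9.26 ± 2.41 per 100 bases). Gtf3c6, a subunit of TFIIIC, was the highest (113, 50 and 47 counts, 18.8 ± 5.07 per 100 bases), and the libraries differed (adjusted p = 0.0298). Its peak was centred 573 bases upstream of the Gtf3c6 start but 214 bases from the start of Rnu3a, a small nucleolar RNA. Of 17 genes for general factors of RNA polymerase II, 2 were listed (11.8%, against 3.79% of all protein-coding genes).

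Mediator, which links activators to the polymerase, had 3 of 33 genes listed when taken as a complex (9.09%, against 3.79% of all protein-coding genes). These were Med22, Med26 and, outside the families searched by name, the kinase Cdk19. Med22 had a normalised count of 36.5 ± 6.62, with the peak centre 18 bases from its own start and 69 bases from that of the ribosomal protein gene Rpl7a on the other strand. Med26 had 15.4 ± 3.34. Of 23 genes for elongation factors 4 were listed (17.4%), the members Ell, Eloa and Eloc and, outside the name families, Paf1. Ell, which suppresses pausing of the polymerase, had 31, 10 and 6 counts (adjusted p = 0.0247), and Eloa, the large subunit of Elongin, had 9, 6 and 22 (adjusted p = 0.0203). The libraries differed at both, with replicate 1 highest at Ell and replicate 3 highest at Eloa. Eloc, an Elongin subunit that also belongs to ubiquitin ligases, had 20, 14 and 24 counts. Per 100 bases Ell and Eloc were both at 14.2 (SD 8.47 and 3.56), and Eloa had the lowest mean of the family at 8.35 ± 5.88. Eloa was lowest in replicates 1 and 2, while in replicate 3 Ell was lower (6.15 against 15.1).

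Where the peaks lay was examined next. The centre of 40 of 46 member peaks (87.0%, 95% Wilson interval 74.3 to 93.9) was at a promoter, within 1000 bases of any annotated transcript start, against 82.1% of all peaks and 88.6% of the 1009 peaks with a listed gene, which all members have. The other 6 were the intron peaks of Chd3, Gtf2a1 and Prmt1, both Setd5 peaks and the intergenic Taf4 peak. Of 38 peaks within 1000 bases of a start of their listed gene, 36 (94.7%) were centred upstream of the nearest start, against 82.2% of all such peaks. Among the machinery genes these were 16 of 16. The median position was −82.0 bases, against −76.5 for all peaks. Only Brd2, at 415 bases, and Mbd1, at 33 bases, were centred downstream of the nearest start. These positions rest on the nearest of several annotated starts. Measured from the gene start instead, machinery peaks of Polr2a (383.5 bases), Gtf2a1 (459.5 bases) and Gtf2b (100.5 bases) lay inside the gene. So did some chromatin peaks, such as that of Ezh2 (234.5 bases). For a peak of each of 4 genes, Brd2, Chd2, Ing1 and Phf19, the nearest start of the listed gene was an alternative one, with the gene start over 1000 bases away (8.70% of peaks, against 5.75% of all peaks with a gene). At 11 peaks (23.9%, against 13.0%) a start of another gene was nearer than any start of the listed gene, so that for these the listed gene is not the one with the nearest start.

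**Figure D3:**
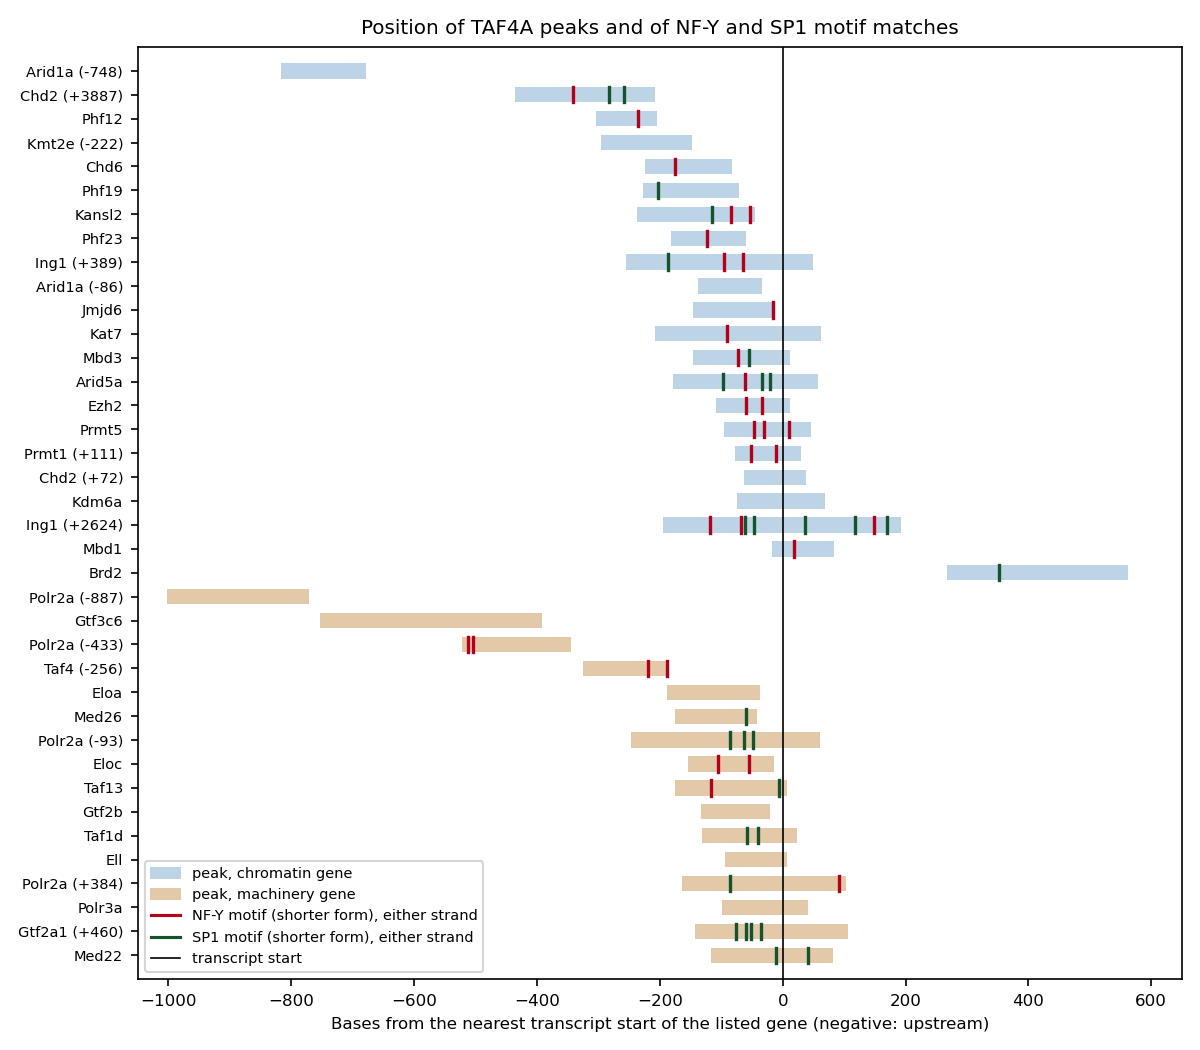
Extent of the 38 peaks within 1000 bases of a transcript start of their gene (bars, x axis in bases from that start, negative values upstream), with matches to the shorter NF-Y motif in red and to the shorter SP1 motif in green. In 36 of 38 peaks the centre lies upstream, and most matches lie 30 to 150 bases upstream.

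Several genes had more than 1 peak. These were 9 of 35 member genes (25.7%), with 20 peaks, against 89 of all 900 listed genes (9.89%). They were Arid1a, Chd2, Gtf2a1, Ing1, Kmt2e, Polr2a, Prmt1, Setd5 and Taf4. Peaks were counted for the gene listed, so the count includes the Setd5 peaks in the Rosa26 locus. It also includes peaks of Kmt2e, Chd2 and Taf4 that lay nearest to the start of another gene. At Ing1, Chd2 and Gtf2a1 the peak farther inside the gene, 2623.5, 3886.5 and 2050.5 bases from the gene start, had the higher mean per 100 bases. The libraries' values of both peaks did not overlap at Ing1 and Chd2 but overlapped at Gtf2a1. The nearest start was an internal one of Ing1 in the first case and that of Gm44686 at Chd2. At Polr2a the gaps between neighbouring peaks were 99 to 250 bases.

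**Figure D4:**
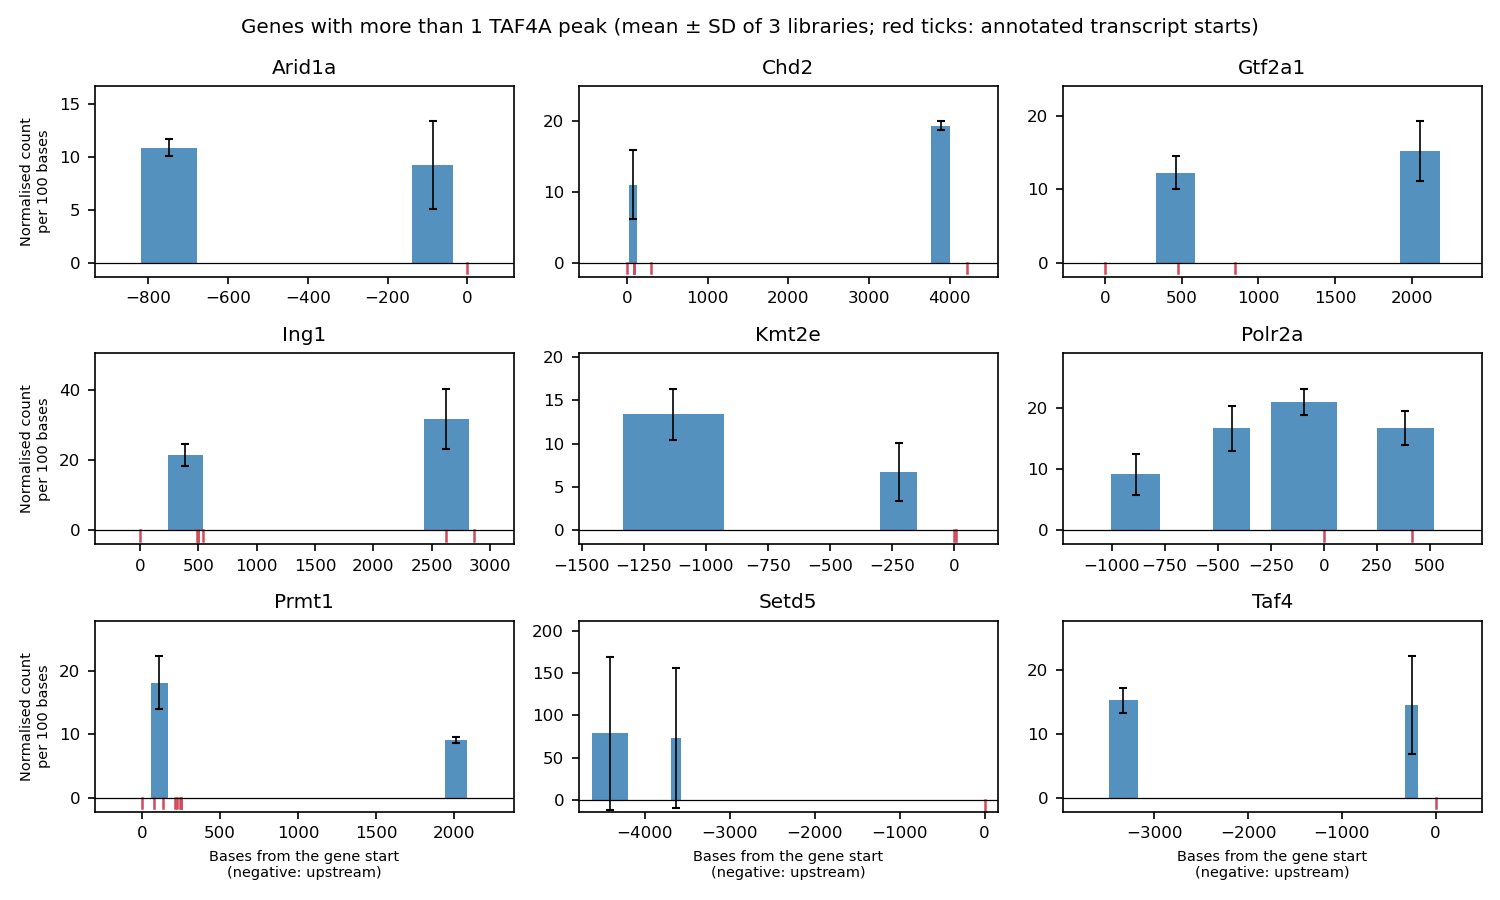
Normalised counts per 100 bases (mean ± SD, 3 libraries) at the 9 genes with more than 1 peak, against the distance from the gene start in bases (negative upstream); bar widths are peak widths and red ticks mark annotated transcript starts. The scale differs between genes, and the Setd5 bars, inside the Rosa26 locus, carry an SD above their mean.

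How far the 3 libraries agreed was tested at every peak. Per the study's reporting summary, reads were longer in replicate 3 than in replicates 1 and 2. It also gives the fewest strongly enriched peaks for replicate 2. Whether this bears on the differences below was not tested. At 9 of 46 member peaks (19.6%) counts differed between libraries beyond counting noise (exact multinomial test, adjusted p below 0.05 over all peaks), against 18.1% of all 1131 peaks, so the members' share was close to the background. These 9 were Taf4 (the promoter peak), Gtf3c6 and Ell, highest in replicate 1, both Setd5 peaks, highest in replicate 2, and Arid5a, Eloa, Ing1 (the internal peak) and Kdm6a, highest in replicate 3. Without the Setd5 peaks 7 of 44 differed. With replicate 1 left out, 3 member peaks differed (6.52%, against 2.48% of all peaks), namely Kdm6a and both Setd5 peaks. With replicate 3 left out these were 3 as well (6.52%, against 7.34%), Arid5a and both Setd5 peaks. Without replicate 2, 8 differed (17.4%, against 15.2%), all but Kdm6a. All 3 libraries had at least 10 counts at 28 member peaks.

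The level of TAF4A counts, with no background taken off, was then compared between the sets. The level was taken as log2 counts per base. The member median minus the median of the other peaks was 0.14 in replicate 1, 0.10 in replicate 2 and −0.03 in replicate 3, with a mean of 0.07 ± 0.09 (SD, n = 3; exact sign-flip permutation test, two-sided p = 0.5). Chromatin minus machinery peaks gave −0.31, 0.05 and −0.10, with a mean of −0.12 ± 0.18 (exact p = 0.5). Neither difference exceeded its spread. Set against the peaks outside the gene set, machinery peaks gave 0.18, 0.10 and 0.03, with a mean of 0.11 ± 0.07 and 1 sign in 3 of 3 libraries (exact p = 0.25), and chromatin peaks gave −0.13, 0.15 and −0.07, with a mean of −0.01 ± 0.15 (exact p = 1.0). With 3 libraries the smallest p this test can give is 0.25, so that it cannot reach 0.05. Per peak, machinery genes had more counts, with a median normalised count of 28.2 against 18.3 for chromatin genes, but their peaks were also wider (median 179.5 against 141.5 bases).

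The study asked about NF-Y and SP1 sites under TAF4A peaks, and the member sequences were therefore searched for both motifs on either strand. The full NF-Y motif was in 8 of 46 member peaks (17.4%, 95% Wilson interval 9.09 to 30.7) and in 17.5% of all peaks. These were Kansl2, Mbd3, Ezh2, Setd1b, Chd6, the internal peaks of Chd2 and Ing1, and 1 Polr2a peak. The full SP1 motif was in 13 (28.3%, 17.3 to 42.5) and in 35.9% of all peaks. The shares of members were thus close to those of all peaks for NF-Y, and the interval for SP1 included the share of all peaks. Kansl2, Mbd3, Chd2 and Ing1 had peaks with both, 4 of 46 (8.70%, against 7.43% of all peaks).

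Split by class, the CCAAT box was in 18 of 28 chromatin peaks (64.3%, 45.8 to 79.3) and in 5 of 18 machinery peaks (27.8%, 12.5 to 50.9), against 45.2% of all peaks. In a window of 300 bases around each peak centre, equal for all peaks and added after the data were seen, it was in 67.9% of chromatin peaks (49.3 to 82.1), 33.3% of machinery peaks (16.3 to 56.3) and 54.6% of all peaks. The full NF-Y motif was in 7 of 28 (25.0%, 12.7 to 43.4) and 1 of 18 (5.56%, 0.988 to 25.8). For both forms the intervals of the classes overlapped, peaks of 1 gene are not independent, and no test was made. For SP1 the shares were 25.0% and 33.3%. Of 15 member peaks without any of the 6 motifs searched (32.6%, against 27.8%), 7 were chromatin and 8 were machinery, among them both Arid1a peaks, Kdm6a, Polr3a, Ell, Eloa, Gtf2b and Gtf3c6.

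**Figure D5:**
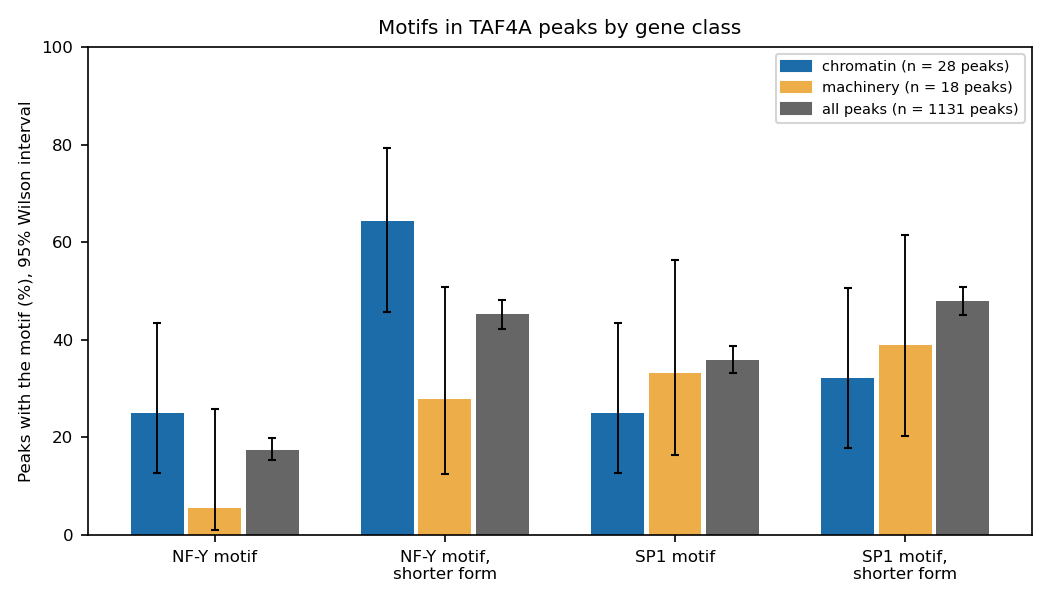
Share of peaks (y axis, percent, 95% Wilson interval) with the full and shorter forms of the NF-Y and SP1 motifs for chromatin peaks, machinery peaks and all peaks. The shorter NF-Y motif was in 64.3% of chromatin and 27.8% of machinery peaks, with intervals that overlap.

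The positions of the boxes were then compared with those under all peaks. Of 31 CCAAT matches within 1000 bases of a start of the listed gene, 27 lay upstream (87.1%, against 87.5% under all peaks) and 18 lay between 30 and 150 bases upstream (58.1%, against 53.1%). The median was −68.0 bases (quartiles −121.0 and −40.0, range −512.0 to 149.0), against −90.0 bases under all peaks. Matches were sought under peaks only, so that their positions follow those of the peaks. Both orientations were present, with 16 on the gene strand. Of 18 full SP1 matches 16 lay upstream (88.9%, against 81.8%), with a median of −57.5 bases (all peaks −67.0). In all, 10 member peaks held 2 or more CCAAT boxes (21.7%, against 20.8% of all peaks), and neighbouring boxes were between 7 (Polr2a) and 217 bases (the internal Ing1 peak) apart. The NRF1 motif (GCGCATGCG) was in 0 of 46 (all peaks 1.86%) and the ETS motif in 4 (8.70%, against 8.84%). The CREB motif was in 1, the internal Chd2 peak (2.17%, against 2.56%), and the YY1 motif in 1, the Polr2a peak shown above (2.17%, against 0.531%).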

How the data were processed

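CUT&RUN was performed with a TAF4A antibody (3 libraries) and IgG (3 libraries) on wild-type MuSCs, and the titles gave each sample's group and number. Per the submitters' processing notes and the study's methods, the authors trimmed reads with Trimmomatic 0.39, aligned them to mm10 with STAR 2.7.9a, removed duplicates with Picard (2.21.7 in the notes, while the study's supplementary methods give another version), called peaks against IgG with MACS at a false discovery rate of 0.05, unified them and counted reads with featureCounts. Per the methods, each peak was given the nearest gene with a start within 10000 bases. In the annotation used here, a start of another gene was nearer at 11 member peaks. Read counts per unified peak are what the authors deposited. The methods name DESeq2 for normalisation, but the values are whole numbers that differ in total between libraries, and they were used as raw counts. A peak called in 1 library enters the unified set, so that its count in another can be low or 0.

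Libraries were scaled by TMM with edgeR 4.0.16 in R 4.3.3, and DESeq2 1.42.0 gave the alternative size factors. A normalised count is the count times the mean scaled library size over that of its own library. An exact multinomial test per peak compared the 3 counts with the scaled sizes, with Benjamini-Hochberg adjustment over all 1131 peaks and a threshold of 0.05. It was tested on simulated data. Log2 values used a pseudocount of 1. Differences between sets of peaks were taken within each library and tested by an exact sign-flip permutation test over libraries. The 3 libraries are biological replicates per the study's methods. The multinomial test treats reads as independent molecules, which sequenced reads need not be, so its p-values are set against counting noise only. Wilson intervals (95%) are over numbers of genes or peaks, which were treated as independent.

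Peaks were annotated with GENCODE M21 on GRCm38. All 1009 listed gene IDs were found, 998 of them with equal gene coordinates. Deposited peak starts were read as counted from 0, and 1 was added to give the coordinates here. Sequences are from the GRCm38 RefSeq genome. Scripts ran under Python 3.11.15 (pandas 2.3.3, numpy 2.4.6, pyfaidx 0.9.0.4, scipy 1.17.1, matplotlib 3.10.9). Subfamilies, complexes and the gene set were chosen with earlier results of these data known. Every listed gene was named. Counts per library were given for Kansl and Kat genes, Mbd3, Prmt1, Setd5, TAFs, genes with more than 1 peak, peaks at which the libraries differed, and the highest and lowest peak per 100 bases of each subfamily of 3 or more peaks. Values named for other genes are means or counts chosen for description. Genes without a peak were named for NSL and TFIID only, as a rule, with Nsdhl, Kat8, the Polycomb core, muscle stem cell markers and families without a peak named besides.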

Additional observations from a re-analysis of the deposited data

How the results depend on the processing

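No paired analysis was possible because the groups that share replicate numbers, TAF4A and IgG, were not compared, as IgG counts per peak were not analysed here. Differences between sets of peaks were taken within each library throughout. The number of member peaks at which the libraries differed, 9, fell to 3 with peaks of at least 10 counts in every library (10.7% of 28 tested, against 19.5% of all such peaks) and to 5 at an adjusted p below 0.01 (10.9%, against 9.90%), and it ranged from 3 to 8 with 1 library left out. Leaving out Setd5, added after the data were seen, gave 7. The share at promoters fell from 87.0% to 73.9% when the distance deposited for each peak was used, since other transcript starts then do not count. It was then below the share of all peaks with a listed gene (78.9%). Members minus other peaks was −0.04 with at least 10 counts, and 0.04 to 0.12 with 1 library left out. Chromatin minus machinery was −0.52 per peak in place of per base, and −0.20 to −0.03 with 1 library left out. The NF-Y share was 50.0% with the shorter motif (all peaks 45.2%). The SP1 share was 42.9% with at least 10 counts (all peaks 43.1%). The share of genes listed was 7.93% with at least 10 counts (all protein-coding genes 2.66%). Normalised counts of all 46 peaks moved by less than their SD with DESeq2 size factors. With 1 library left out, the normalised count of 5 member peaks moved by over 1.5 times. Those of Setd5 went from 330.4 to 503.3 (without replicate 1) or 122.0 (without replicate 2), and from 84.6 to 129.6 or 32.7. Without replicate 3, Kdm6a went from 8.61 to 4.42, Eloa from 12.7 to 7.44 and Chd6 from 11.1 to 7.08. Low counts limit single peaks, since 28 of 46 had at least 10 counts in every library.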

Other observations

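Besides the listed genes, 7 peaks lay within 1000 bases of a transcript start of 6 further genes of these families but were listed for another gene or for none. For the demethylase relatives Jmjd1c and Kdm2a, the acetyltransferase Kat6b and the remodeller family gene Arid5b, no gene was listed, and the peak was near an internal start. Jmjd1c had 2 such peaks, with 52, 29 and 45 counts and with 14, 13 and 14 counts in replicates 1, 2 and 3. Kdm2a had 40, 13 and 28 counts, Kat6b had 23, 10 and 24, and Arid5b had 15, 6 and 19. A peak with 110, 45 and 48 counts near the start of Gtf2f1, a subunit of TFIIF, was listed for Gm17949. A peak with 43, 34 and 40 counts near the start of Med29, a Mediator subunit, was listed for Paf1, an elongation factor. Counted by distance instead of by listed gene, 38 of 290 family genes (13.1%) had a peak, against 4.29% of all protein-coding genes.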
